A study of Mus musculus with 4 samples.

Results

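The nuclear genes of the mitochondrial respiratory chain and the ATP synthase were followed in mouse haematopoietic stem cells (HSC), the bone marrow cells from which all blood lineages descend. Members were chosen by symbol: names starting with Nduf followed by a, b, c, s or v and a number, Sdha to Sdhd, names starting with Uqcr, Cyc1, names starting with Cox4 to Cox8, and names starting with Atp5. This gave 85 of 24411 gene rows, of which 37 belong to complex I, 4 to complex II, 9 to complex III, 18 to complex IV and 17 to complex V. The pattern does not match Ndufab1, a further complex I subunit. It places Ndufa4 in complex I, although this protein is now regarded as a subunit of complex IV. Cox7a2l is a factor of respiratory supercomplexes, and Atp5s and Atp5sl are not subunits of the ATP synthase. These genes stayed where their names put them.

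The study compared HSC of 2 genotypes, labelled Mat KO and wildtype (WT), with 2 libraries of each. All cells came from bone marrow, were FACS-sorted and then picked singly, and the study's title concerns small nucleolar RNAs of the Dlk1-Gtl2 imprinted locus. The labels used here give no strain, age, sex or treatment, and do not say which sequence is missing in Mat KO or whether the libraries came from separate animals. A p-value here therefore reflects how far these libraries differ among themselves, which may be technical.

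The 188 kept cells had at least 1000 detected genes each: 44 from Mat KO replicate 1 and 48 from each other library. The Mat KO libraries held 1900319 and 1768647 tagged transcripts (unique molecular identifiers, UMIs), the WT libraries 3183279 and 3253608. The same 96 barcode names serve every library, so they identify a well and not a cell across libraries. Meg3, a maternally expressed RNA of the Dlk1-Gtl2 locus, gave 35 and 58 UMIs in the Mat KO libraries against 168 and 153, and a tag outside a deleted stretch checks nothing. All 12 HSC markers examined, among them Kit, Procr and Mecom, were detected in every library, with summed levels of 1539 and 1981 CPM in Mat KO and 2230 and 1757 CPM in WT, where CPM is UMIs scaled to the library's total. A list of 20 granulocyte and monocyte genes stood apart in Mat KO replicate 1, at 3.69% of UMIs against 0.612% in Mat KO replicate 2 and 0.737% and 0.356% in WT. Rn45s, the row of the ribosomal RNA precursor, took 6.48% and 8.89% of Mat KO UMIs against 4.41% and 4.95% of WT UMIs, so levels are given with and without it in the total.

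The respiratory chain passes electrons from NADH through complex I, and from succinate through complex II, to ubiquinone. Complex III hands them to cytochrome c and complex IV to oxygen, while complexes I, III and IV pump protons across the inner mitochondrial membrane. Complex V, the ATP synthase, lets the protons return and makes ATP. Long-term HSC are known for relying more on glycolysis than on this chain while they rest. Complexes I, III, IV and V also contain subunits encoded in mitochondrial DNA, but none of the 13 mitochondrial protein genes has a row in the files used here, so all values below concern the nuclear subunits.

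Nuclear respiratory chain genes are textbook targets of NRF1, of the ETS factor GABP (also called NRF2) and of YY1, and their promoters were searched because the members are compared as a group. RefSeq promoter windows (GRCm38.p6) were matched for 66 of 85 members, and the 250 bases before each start site were searched on both strands. The NRF1 motif, GCGCA and GCGC separated by 1 base of any kind, was present in 13 of 66 members (19.7%), against 4.23% of 27025 genes with a window. The ETS motif CCGGAAG was present in 12 members (18.2%, against 7.83% of genes), and the YY1 motif AAGATGG in 1 member, Atp5j (1.52%, against 5.18%). The NRF1 motif was found in 6 of 32 matched members of complex I, 2 of 3 of complex II, 0 of 5 of complex III, 1 of 13 of complex IV and 4 of 13 of complex V. Atp5h, Cox6a1 and Sdhd held both the NRF1 and the ETS motif. The ETS match of Atp5h, the ETS match of Cox6a1 and the NRF1 match of Sdhd overlapped an annotated exon. Motif counts given here include such matches. A match describes these letters and is not a measured binding site, and a window without a match says nothing of the factor.

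The stretches below come from 4 members of 4 different complexes that passed the test between cell-cycle classes given further on. They are written on the gene's strand, end before the first annotated exon, and carry the motif or its reverse complement in capitals.
Ndufb6, complex I, ETS motif, chr4:40279607-40279671, minus strand: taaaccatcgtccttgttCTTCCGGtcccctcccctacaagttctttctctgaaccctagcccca
Sdhd, complex II, ETS motif, chr9:50603850-50603909, minus strand: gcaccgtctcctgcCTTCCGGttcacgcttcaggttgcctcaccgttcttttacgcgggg
Cox6a1, complex IV, NRF1 motif, chr5:115349071-115349129, minus strand: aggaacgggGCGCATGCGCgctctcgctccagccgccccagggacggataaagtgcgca
Atp5h, complex V, NRF1 motif, chr11:115420011-115420100, minus strand: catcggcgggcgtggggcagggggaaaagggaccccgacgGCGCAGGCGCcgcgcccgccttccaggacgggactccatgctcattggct
The capital stretch starts 232 bases before the start site in Ndufb6, 46 in Sdhd, 162 in Cox6a1 and 141 in Atp5h.

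The question put first was whether the 5 complexes differed between genotypes. The 85 genes together held 37336 and 32705 UMIs in the Mat KO libraries and 74360 and 82680 in the WT libraries, which is 1.96% and 1.85% of UMIs against 2.34% and 2.54%. Both Mat KO libraries lay below both WT libraries. The mean log2 difference, Mat KO minus WT, was -0.35, a ratio of 0.782. With Rn45s left out of the total the shares were 2.10% and 2.03% against 2.44% and 2.67%, and the difference was -0.31. Beside these values, the Mat KO cells were shallower, at a median of 33613 and 27845 UMIs per cell against 53093 and 51437. Values at equal numbers of UMIs per cell are given below. Drawing equal numbers keeps each cell's expected share of chain UMIs, so the part of depth in the difference was not measured.

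Each complex, taken as the sum of its members, was lower in both Mat KO libraries than in both WT libraries. Complex I, the NADH dehydrogenase, reached 5957 and 5850 CPM in Mat KO and 7484 and 7952 CPM in WT, a log2 difference of -0.39. Complex II, the succinate dehydrogenase shared with the citric acid cycle, reached 365 and 383 CPM against 483 and 462 CPM (-0.34). Complex III, the cytochrome bc1 complex, reached 2361 and 2155 CPM against 2650 and 3168 CPM (-0.36). It had the largest spread within WT of the 5 complexes as a share of its mean. Complex IV, cytochrome c oxidase, reached 5222 and 4805 CPM against 6073 and 6175 CPM (-0.29). Complex V reached 5743 and 5298 CPM against 6669 and 7655 CPM (-0.37). Without Rn45s in the total the log2 differences were -0.34 for complex I, -0.29 for II, -0.32 for III, -0.24 for IV and -0.33 for V, and the libraries of the genotypes still did not overlap for any complex. With Ndufa4 counted in complex IV and Rn45s in the total, the differences were -0.35 for complex I and -0.33 for complex IV. All of these are sums over chosen members of 2 libraries each and carry no p-value.

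**Figure D1:**
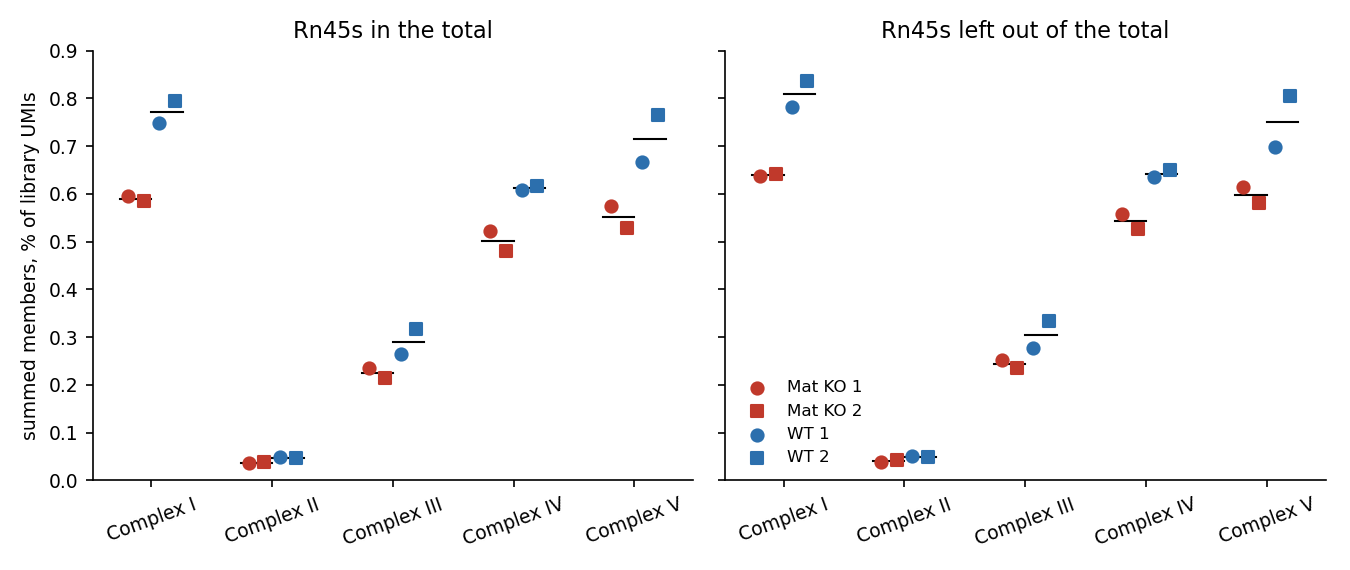
Summed UMIs of the members of each complex as a percent of the library's UMIs, with Rn45s in the total (left) and left out (right). Each symbol is 1 library (red Mat KO, blue WT; circle replicate 1, square replicate 2) and each line the mean of 2 libraries; both Mat KO libraries lie below both WT libraries in all 5 complexes on either scale.

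The make-up of the chain by complex overlapped between the genotypes. Complex I gave 30.3% and 31.6% of the chain's UMIs in the Mat KO libraries against 32.0% and 31.3%. Complex II gave 1.86% and 2.07% against 2.07% and 1.82%, and complex III between 11.3% and 12.5% in every library. Complex IV gave 26.6% and 26.0% against 26.0% and 24.3%, and complex V 29.2% and 28.7% against 28.6% and 30.1%. No complex was set apart from the others by genotype on this scale.

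The members were then tested one by one with edgeR's quasi-likelihood test on UMIs summed per library. The low-count filter let 78 of 85 members through: 35 of 37 in complex I, all 4 in II, all 9 in III, 13 of 18 in IV and all 17 in V. None passed at an adjusted p of 0.05 over 10663 genes (Benjamini-Hochberg), and over the whole table of genes 0% were called lower and 0.075% higher in Mat KO. The smallest adjusted p among members was 0.420 for Ndufa4, and 6 members had an unadjusted p under 0.05, all lower in Mat KO, where 7.82% of all genes had such a p and 3.32% had it and were lower. DESeq2 called 1 member lower, Ndufa4 (adjusted p = 0.0379), beside 0.165% of genes.

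By sign, 70 of 78 members had a log2 fold change below 0, against 50.6% of all genes tested. The median was -0.35 over members and -0.01 over all genes. Without WT replicate 2 the medians were -0.20 and 0.04, with 63 of 79 members lower and 0 at an unadjusted p under 0.05. Both Mat KO libraries lay below both WT libraries for 41 of 78 members, where 21.3% of all genes did so, and above both for 2 members, Ndufa11 and Uqcrc2, where 17.8% did so. By complex the lower count was 32 of 35 in complex I (median -0.35), 3 of 4 in II (-0.41), 8 of 9 in III (-0.38), 12 of 13 in IV (-0.23) and 15 of 17 in V (-0.34). The members are co-expressed parts of the same complexes and were read from the same 4 libraries, so these counts are descriptions.

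**Figure D2:**
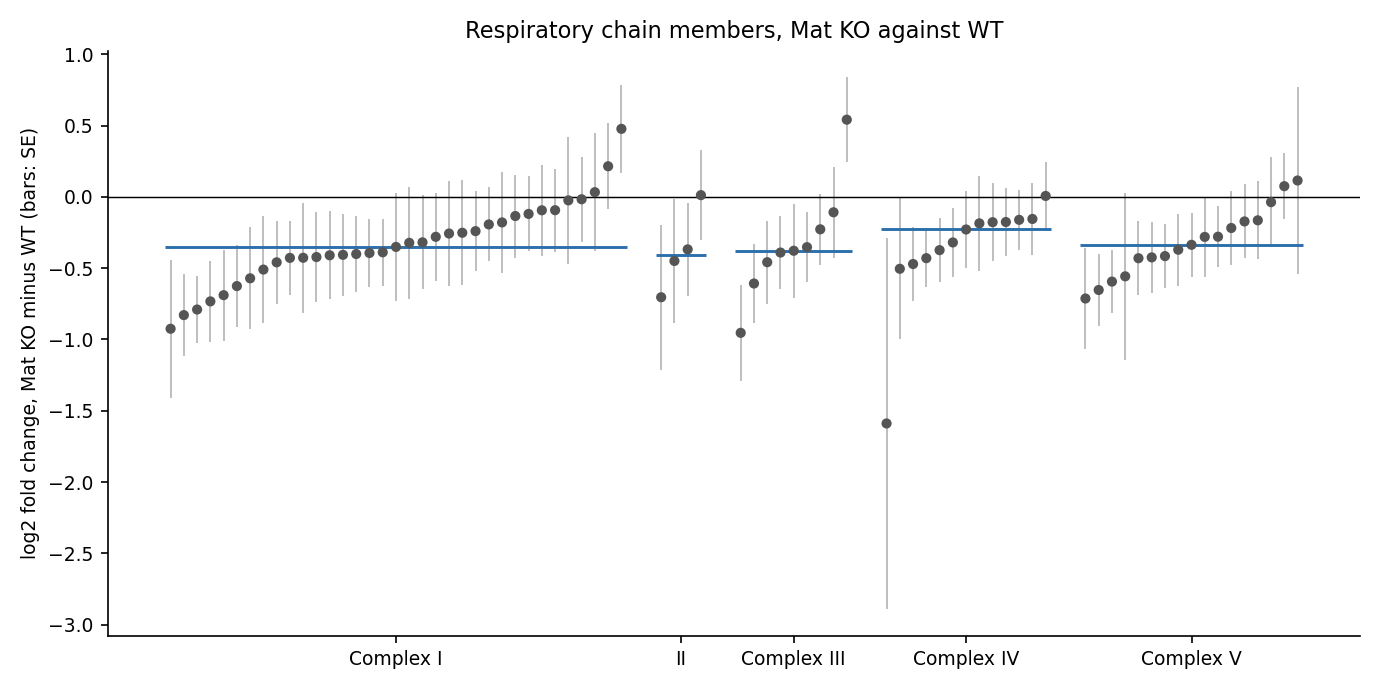
Log2 fold change (Mat KO minus WT, y axis, bars are standard errors) of each of the 78 tested members, ordered within its complex. Blue lines are the medians of the complexes, between -0.41 and -0.23; 70 of 78 points lie below 0 and none passed the test after adjustment.

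Ndufa4 (chromosome 6, 11900372 to 11907450 in GENCODE M21, mm10), the subunit now assigned to complex IV, reached 403 and 353 CPM in Mat KO and 624 and 711 CPM in WT. The genotypes did not overlap, with a log2 fold change of -0.79 (SE 0.23). It had UMIs in 39 of 44 cells of Mat KO replicate 1 and 42 of 48 of replicate 2, against 48 of 48 and 47 of 48 WT cells. When every cell was thinned to the same number of UMIs the shares of cells were 76.3% and 82.9% against 93.5% and 93.2%. Its relative Ndufa4l2, known as a hypoxia-induced form, was at 0 UMIs in all 4 libraries. With 0 UMIs a level of up to 1.58 and 1.70 CPM is allowed in the Mat KO libraries, and of up to 0.942 and 0.922 CPM in those of WT. Such limits, 3 counts of each library's total, cover counting error only.

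Among the accessory subunits of complex I, Ndufb2 had the largest fold change of those with an unadjusted p under 0.05, at 199 and 133 CPM in Mat KO against 297 and 305 CPM in WT (log2 fold change -0.83, SE 0.28). Ndufs6, a zinc-binding subunit needed late in assembly, had 125 and 137 CPM against 224 and 222 CPM (-0.73, SE 0.28). In both genes the WT pair was the tighter and lay above the Mat KO pair. Ndufa3 had 504 and 375 CPM against 599 and 579 CPM, and Ndufa2 395 and 416 CPM against 581 and 503 CPM, with log2 fold changes of -0.39 for each. Ndufa11, a membrane-arm subunit, went the other way, at 162 and 236 CPM in Mat KO and 154 and 139 CPM in WT (0.48, SE 0.31). The flavoprotein-associated subunit Ndufv3 had 272 and 241 CPM against 281 and 170 CPM (0.21, SE 0.30), which overlapped. Ndufs5 was at 0 UMIs in every library although the other tested members of complex I had at least 58 UMIs in each. Which gene received reads shared with near-identical copies is not stated in the sources used here.

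Complex II had its genotypes apart in 1 of 4 members. Sdhc, a membrane anchor of the complex, had 25.8 and 71.8 CPM in Mat KO and 84.8 and 78.4 CPM in WT (log2 fold change -0.70, SE 0.51), with Mat KO replicate 1 far below the rest. The other anchor, Sdhd, had 85.8 and 45.2 CPM against 71.6 and 111 CPM (-0.45, SE 0.44). Sdhb, the iron-sulphur subunit, had 133 and 105 CPM against 181 and 132 CPM (-0.37, SE 0.33). Sdha, the flavoprotein that oxidises succinate, had 121 and 162 CPM against 145 and 141 CPM (0.01, SE 0.32). The last 3 genes overlapped between genotypes.

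In complex III the largest difference was in Cyc1, which encodes cytochrome c1, the subunit that gives electrons to cytochrome c. It reached 82.6 and 79.2 CPM in Mat KO and 134 and 186 CPM in WT (log2 fold change -0.95, SE 0.34). The small subunit Uqcrq had 276 and 181 CPM against 338 and 373 CPM (-0.61, SE 0.28), again without overlap. The most abundant small subunits were Uqcrh at 423 and 595 CPM against 616 and 605 CPM, Uqcr11 at 367 and 347 CPM against 406 and 549 CPM, and Uqcr10 at 390 and 265 CPM against 366 and 551 CPM. The first pair of these kept the genotypes apart, and Uqcr10 did not. Uqcrc2, a core subunit, was higher in both Mat KO libraries, at 189 and 174 CPM against 118 and 137 CPM (0.54, SE 0.30).

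In complex IV the most abundant members were Cox8a, at 771 and 696 CPM in Mat KO against 1017 and 1002 CPM in WT, and Cox4i1, at 744 and 755 CPM against 922 and 792 CPM. Their log2 fold changes were -0.43 (SE 0.20) and -0.16 (SE 0.21), and neither pair of groups overlapped. Cox6c had 499 and 560 CPM against 690 and 713 CPM (-0.37, SE 0.22), and Cox7b 287 and 288 CPM against 349 and 467 CPM (-0.47, SE 0.26). Cox6a1, Cox6b1 and Cox7a2 overlapped, with Cox7a2 at 401 and 427 CPM against 433 and 410 CPM. The supercomplex factor Cox7a2l had 237 and 364 CPM against 451 and 249 CPM and overlapped as well.

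Several complex IV subunits exist as tissue forms, and the ubiquitous form carried nearly all UMIs in these cells. Cox4i2, known from lung and hypoxia, had 12 and 2 UMIs in the Mat KO libraries against 45 and 29, and 1 cell held 82.8% of the UMIs of WT replicate 2. Cox7a1, a heart and muscle form, had 12, 6, 0 and 9 UMIs in the order Mat KO replicates 1 and 2 and WT replicates 1 and 2. The muscle form Cox8b had 4 UMIs and the testis form Cox8c 6 UMIs, all in Mat KO replicate 2 and each from a single cell. Cox6a2, a muscle form, had 1 UMI in WT replicate 2, and the testis form Cox7b2 had 0 in every library. Cox6b2, described as the testis form of Cox6b1, was the exception. It held 150, 152, 176 and 597 UMIs in the same order, in 15 of 44, 17 of 48, 22 of 48 and 33 of 48 cells. Its level of 183 CPM in WT replicate 2 stood above 78.9, 85.9 and 55.3 CPM in the other libraries, while Cox6b1 had 601 and 436 CPM in Mat KO and 575 and 621 CPM in WT.

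In complex V, Atp5b, the catalytic beta subunit, had 467 and 473 CPM in Mat KO and 693 and 759 CPM in WT (log2 fold change -0.59, SE 0.22). Atp5a1, the alpha subunit that sits beside it, had 489 and 533 CPM against 675 and 719 CPM (-0.42, SE 0.22). Atp5j2, a subunit of the membrane part, had 272 and 327 CPM against 454 and 509 CPM (-0.65, SE 0.25), and Atp5e, the epsilon subunit of the central stalk, 683 and 701 CPM against 792 and 925 CPM (-0.28, SE 0.21). The genotypes did not overlap in any of these 4 genes. Atp5k, which takes part in dimers of the enzyme, had 528 and 450 CPM against 463 and 485 CPM (0.07, SE 0.23).

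Of the 3 genes that encode the same c subunit of the proton-carrying ring, Atp5g1 had 328 and 167 CPM in Mat KO and 304 and 522 CPM in WT (log2 fold change -0.71, SE 0.36). Atp5g2 had 165 and 171 CPM against 188 and 228 CPM, and Atp5g3 263 and 200 CPM against 178 and 305 CPM. Atp5g2 kept the genotypes apart and the other two overlapped. The genes Atp5s and Atp5sl, which are no subunits, were low, at 22.1 to 27.4 CPM and 23.7 to 60.3 CPM over the 4 libraries.

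Other genes of the pathway were read from lists in the same fit, and no gene of any of them passed the test between genotypes. Of electron carrier and ubiquinone genes, 12 of 14 tested were lower in Mat KO (median log2 fold change -0.40). Etfb, a subunit of the electron transfer flavoprotein, had 155 and 175 CPM against 260 and 321 CPM (-0.79, SE 0.27). Of citric acid cycle and pyruvate dehydrogenase genes, 16 of 18 were lower (median -0.34). Suclg1, the alpha subunit of succinyl-CoA ligase, had 55.8 and 46.9 CPM against 132 and 131 CPM (-1.32, SE 0.36, adjusted p = 0.328 by edgeR). Of protein import genes, 21 of 23 were lower (median -0.31). Assembly factors of the chain were lower in 27 of 46 (median -0.26), glycolysis genes in 10 of 15 (median -0.11) and the regulator list in 6 of 14 (median 0.07). In the regulator list Gabpb1, the beta subunit of GABP, had 75.8 and 101 CPM in Mat KO and 38.3 and 63.0 CPM in WT (0.84, SE 0.43). Over all genes tested 50.6% were lower, so the regulators and assembly factors lay nearest to that share.

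Cell-cycle RNA as a whole did not separate the genotypes, as its summed share of UMIs overlapped between them. S-phase and G2/M genes differed in opposite directions. Of S-phase genes 34 of 39 were lower in Mat KO (median log2 fold change -0.68, 11 at an unadjusted p under 0.05), and of G2/M genes 16 of 51 (median 0.22). No gene of either list passed edgeR's test between genotypes. The chain is set against cell-cycle RNA further on, with its values in cells low in cell-cycle RNA.

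Single cells gave the same order of the genotypes as the sums. The median share of the chain in a cell was 16920 and 14371 CPM in Mat KO and 20452 and 20739 CPM in WT. Within a library the cells spread widely, from 7647 to 33457 CPM in Mat KO replicate 1 and from 9652 to 46691 CPM in WT replicate 2. For complex II, of which the median cell had few UMIs, the medians were 234 and 230 CPM against 459 and 408 CPM, a log2 difference of -0.90 where the sums gave -0.34. No complex II UMI was present in 8 of 44 cells of Mat KO replicate 1 and 7 of 48 of replicate 2, against 3 of 48 and 1 of 48 WT cells.

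Depth was set equal by drawing 8877 UMIs from each cell, which kept 38 and 41 cells of Mat KO and 46 and 44 of WT and left out 19 shallower cells (6, 7, 2 and 4 in the same order). The median cell then held 152.5 and 133 chain UMIs in Mat KO, against 180 and 179.5. The median number of members detected was 44.5 and 43 against 51 and 54 of 85. By complex the medians were 49 and 42 against 63 and 60.5 UMIs for I, 2 and 2 against 4 and 4 for II, 17 and 16 against 21.5 and 22 for III, 34.5 and 34 against 47 and 39.5 for IV, and 43 and 39 against 50.5 and 57.5 for V. The genotypes stayed apart in every complex. Across cells, thinned chain UMIs still rose with the original depth, with Spearman's rho from 0.23 to 0.49 in the 4 libraries (38 to 46 cells each), given as a description.

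Complexes also varied together between cells of 1 library, as a description without a test. On thinned counts rho between complexes I and V was 0.54, 0.54, 0.49 and 0.40 in Mat KO replicates 1 and 2 and WT replicates 1 and 2. Between III and V it was 0.54, 0.57, 0.44 and 0.55. Pairs with complex II, which rest on a median of 2 to 4 UMIs a cell, ran from 0.01 to 0.51. The cells of a library may share technical steps that the labels do not name, and at equal depth counts of different genes compete for the same UMIs.

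Cells with UMIs of other lineages were set aside to see whether they carried the difference. At least 1% of UMIs in a granulocyte-monocyte, B, T/NK or erythroid list was found in 12 and 4 Mat KO cells and 3 and 3 WT cells. In the other 166 cells 73 of 78 tested members were lower in Mat KO (median -0.37). Over all genes tested in these cells 50.4% were lower (median -0.01). Stricter limits were chosen after seeing the data (0.2% for the B list and 0.5% for the granulocyte-monocyte list). With these, 18 and 39 Mat KO cells and 38 and 42 WT cells remained. Then 72 of 78 members were lower (median -0.46), as were 51.6% of all genes (median -0.03). None passed edgeR's test in either set.

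**Figure D3:**
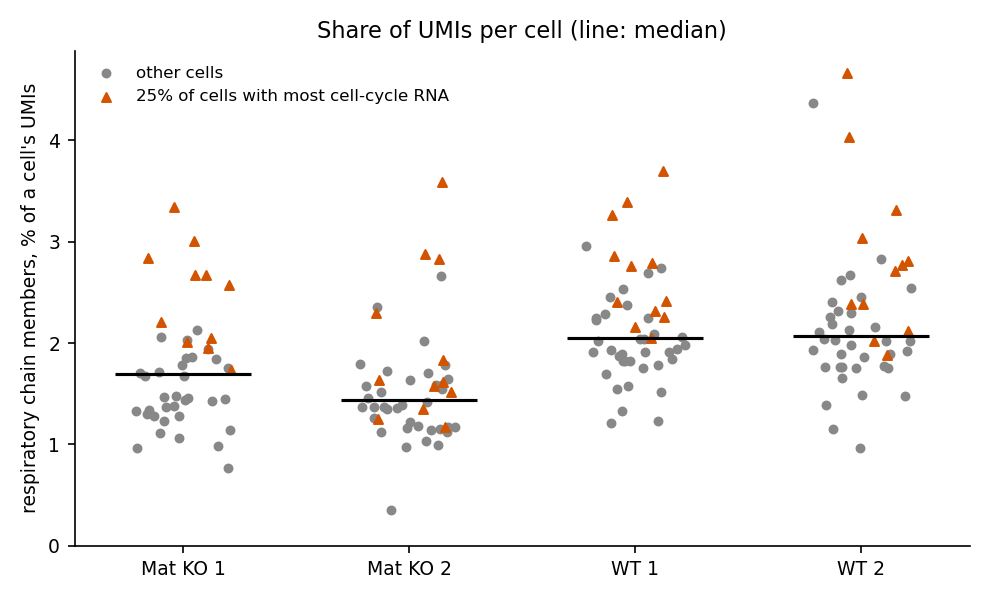
Share of each cell's UMIs in the 85 respiratory chain genes (y axis, percent) for the 188 kept cells by library, with horizontal scatter added for legibility. Orange triangles are the 25% of each library's cells with the largest share of cell-cycle UMIs, grey points the rest, and black lines the library medians, which correspond to 16920, 14371, 20452 and 20739 CPM from left to right.

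The second comparison asked how the chain differed between cells with more and less cell-cycle RNA. In each library the 25% of cells with the largest share of UMIs in 90 S-phase and G2/M genes was set against the rest, 11 or 12 cells against 33 to 36. Library was a term of the fit, and none of the members is in the cell-cycle lists. Chain genes summed to 25618 and 25628 CPM in the cycle-high cells of Mat KO and 27483 and 31948 CPM in those of WT, against 15106 and 15518 CPM and 20874 and 22310 CPM in the other cells. All 4 libraries moved the same way, by ratios of 1.70, 1.65, 1.32 and 1.43.

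Of 79 members tested, 21 were called higher in cycle-high cells and 0 lower by edgeR's quasi-likelihood test at an adjusted p of 0.05. Over all 10257 genes 3.7% were called higher and 1.89% lower, and the former include 27 of 39 S-phase and 46 of 51 G2/M genes of the lists that defined the classes. A positive log2 fold change was seen in 70 of 79 members against 44.1% of genes, with a median of 0.59 against -0.14. The calls fell in every complex: 6 in complex I, 1 in II, 3 in III, 5 in IV and 6 in V. All 21 were higher in 4 of 4 libraries.

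In complex I, Ndufv2, a flavoprotein subunit near the NADH site, rose from 57.4 to 261 CPM and from 68.9 to 359 CPM in Mat KO replicates 1 and 2. In WT replicates 1 and 2 it rose from 150 to 191 and from 97.9 to 244 CPM. Its log2 fold change was 1.55 (SE 0.34, edgeR adjusted p = 0.00779). In Mat KO replicate 2 a single cell held 46.2% of the 273 Ndufv2 UMIs. Ndufs6 followed at 1.14 (SE 0.28, adjusted p = 0.0173), and Ndufb6, whose promoter stretch is printed above, went from 59.3 to 156, 121 to 248, 177 to 279 and 165 to 315 CPM in the 4 libraries (1.00, SE 0.28). In complex II, Sdhd went from 35.2 to 152, 24.8 to 94.2, 57.9 to 94.4 and 79.3 to 177 CPM (1.45, SE 0.40, adjusted p = 0.0352). A single cell held 40% of the 80 Sdhd UMIs of Mat KO replicate 2. The other 3 Sdh genes did not pass the test and ranged from 0.31 to 0.64.

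Complex III had the smallest adjusted p of all members. Uqcr10 went from 225 to 608 and from 231 to 346 CPM in Mat KO, and from 236 to 583 and from 377 to 918 CPM in WT (log2 fold change 1.16, SE 0.22, edgeR adjusted p = 0.00183). Uqcrq (1.17, SE 0.26) and the core subunit Uqcrc1 (1.00, SE 0.28) also rose, while Uqcrh did not pass, at 0.00 (SE 0.18). In complex IV, Cox7a2 went from 225 to 632, 333 to 652, 336 to 592 and 304 to 635 CPM (1.08, SE 0.21, adjusted p = 0.002). Cox6a1, Cox5a, Cox5b and Cox6c also rose, by 0.71 to 1.04, whereas Cox4i1 did not pass, at 0.22 (SE 0.17). In complex V, Atp5k went from 223 to 928, 329 to 740, 414 to 545 and 355 to 758 CPM (1.17, SE 0.23, adjusted p = 0.00302). Atp5b, Atp5j, Atp5j2, Atp5h and Atp5g1 rose by 0.85 to 0.98. Of the c-subunit genes, Atp5g2 and Atp5g3 did not pass, at 0.59 (SE 0.28) and 0.24 (SE 0.26).

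**Figure D4:**
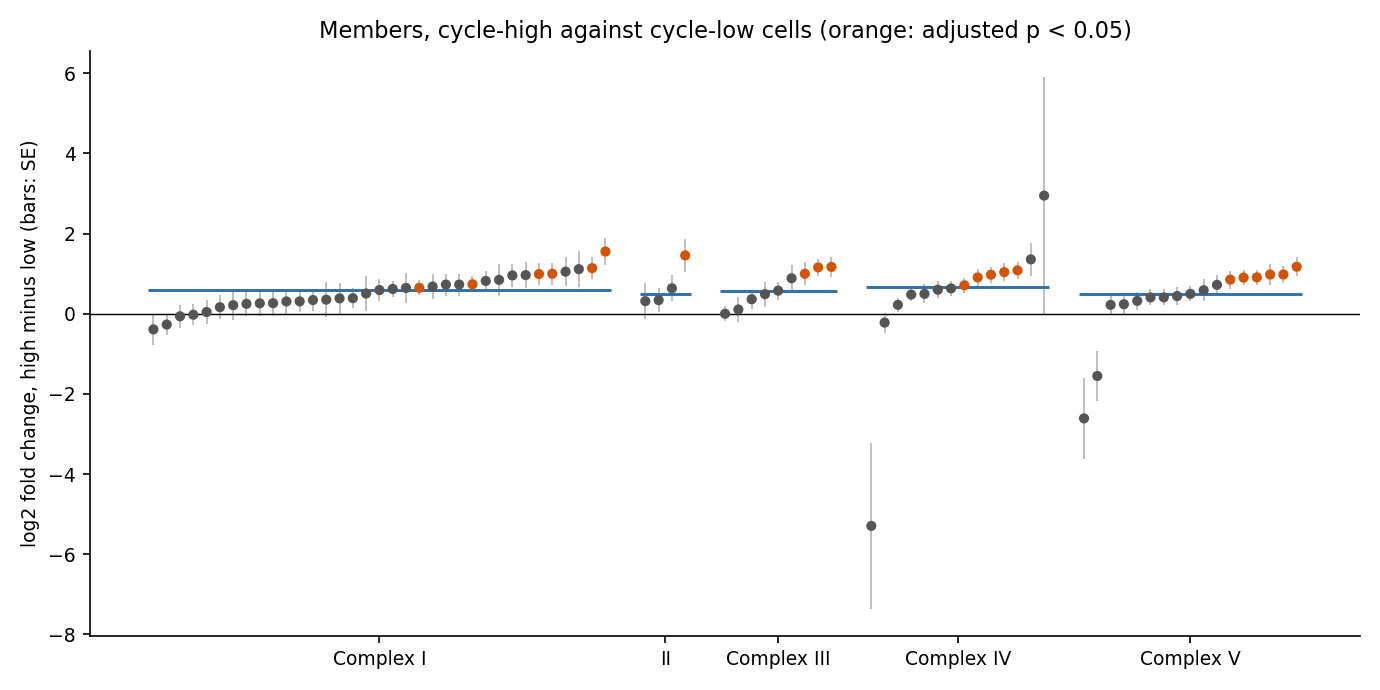
Log2 fold change (cycle-high minus cycle-low cells, y axis, bars are standard errors) of the 79 tested members, ordered within each complex. Orange points are the 21 members with an adjusted p under 0.05, all above 0; blue lines are the medians of the complexes, and the points far below 0 in complexes IV and V are Cox4i2, Atp5s and Atp5sl.

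Other measures moved with this contrast. The cycle-high cells were deeper, with median UMIs of 61245 against 26203 and 33147 against 23625 in Mat KO and 81644 against 42119 and 73374 against 48670 in WT. Their summed share of a 14-gene B-lymphoid list was 0.314% against 0.0321%, 0.445% against 0.0284%, 0.29% against 0.0326% and 0.155% against 0.0247%, with Ms4a1 at 0 in 3 libraries and Pax5 at 0 in 2. Their median share of HSC markers was lower in all 4 libraries (0.0254% against 0.25%, 0.16% against 0.225%, 0.101% against 0.265% and 0.107% against 0.243%). In Mat KO replicate 2 this class began at a cell-cycle share of 0.402%, where in the other libraries it began at 0.752% to 1.78%.

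The test was therefore repeated at equal depth and with fewer cells of other lineages. At 8877 UMIs a cell 8 of 76 members were called, with 4.74% of 4538 genes called higher, and the median over members was 0.38 against -0.07 over all genes. Under the stricter lineage limits 1 of 78 was called, Sdhd (log2 fold change 1.83, edgeR adjusted p = 0.049), while 61 of 78 were above 0 with a median of 0.33 against -0.17 over all genes, and 0.959% of all genes were called higher. Uqcr10 was then at 0.71 (adjusted p = 0.299) and Ndufv2 at 0.22 (adjusted p = 0.967). With the 1% lineage limit alone 25 of 79 were called, beside 4.49% of all genes. Leaving out 1 library gave 10 (without Mat KO replicate 1), 8 (without Mat KO replicate 2), 13 (without WT replicate 1) and 11 calls (without WT replicate 2). The shares of all genes called higher were then 2.48%, 2.5%, 2.58% and 3.45% in that order.

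The cycle contrast was also compared between genotypes. By complex the ratio of cycle-high to other cells ran from 1.55 to 1.90 in Mat KO replicate 1, 1.54 to 1.83 in Mat KO replicate 2, 1.22 to 1.51 in WT replicate 1 and 1.41 to 1.47 in WT replicate 2. In each complex both Mat KO ratios of summed UMIs exceeded both WT ratios, and in complex V they were 1.84 and 1.83 against 1.22 and 1.41. Medians over cells did not keep that order for the chain as a whole. By these medians it went from 14484 to 25721 and from 13693 to 16229 CPM in Mat KO. In WT the medians went from 19218 to 25877 and from 19978 to 27424 CPM, so Mat KO replicate 2 rose least. In the interaction term of edgeR's quasi-likelihood test 0 of 79 members passed, beside 0.00975% of all genes, and 6 members had an unadjusted p under 0.05, as did 383 of all 10257 genes. The contrast was larger in Mat KO for 53 of 79 members, with a median difference of 0.21 against 0.02 over all genes. With 2 libraries of each genotype this leaves the size of the difference poorly known.

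Cells outside the cycle-high class kept the order of the genotypes for each complex. Complex I had 4796 and 4961 CPM in these cells of Mat KO and 6713 and 7026 CPM in WT, and complex V 4216 and 4254 CPM against 6157 and 6762 CPM. In the cycle-high cells complexes I to IV kept that order as well, while complex V overlapped, at 7751 and 7803 CPM in Mat KO against 7518 and 9536 CPM. The fit between genotypes was repeated on another set, the cells at or below a cell-cycle share of 0.85% in every library. In that set 67 of 78 members were lower in Mat KO (median log2 fold change -0.37), as were 51.1% of all genes (median -0.02).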

How the data were processed

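Single HSC were profiled with a modified STRT-seq method, in which an oligo-dT primer adds a cell barcode and a UMI, per the labels' protocols. The authors deposited raw UMI counts per gene and barcode, without normalization. TopHat2 2.0.12, HTSeq and the mm10 build were used, per the submitters' processing notes. Whether counting used strand is not stated in the sources used here. The 95 spike-in and marker rows were left out. All column names carry 1 flow cell and lane.

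Counts of kept cells were summed per library. The test was edgeR 4.0.16 (R 4.3.3): TMM factors, filterByExpr, quasi-likelihood, genotype as the only term or cycle class with library as a term, Benjamini-Hochberg at 0.05 over all genes. Log2 fold changes come from that fit. The standard error (SE) is their size over the root of F. Alternatives used DESeq2 1.42.0 and other settings. Since cells were picked singly, doublets were not called. CPM of these 3′ tags is not divided by gene length.

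On simulated data with 100 genes changed 2-fold and 100 changed 4-fold, the genotype fit on 10663 genes recovered 4 and 49, and the cycle fit on 10195 genes 14 and 91. The simulated spread between libraries (dispersion) was a fixed value for all genes and was not estimated from these libraries.

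Members, lists and tests were chosen with earlier results of these data known. Named members are the 3 highest in CPM and the 2 of smallest p in each direction per complex, the 2 of smallest p among cycle calls per complex, the isoform sets, all Sdh genes and those whose name misplaces them. Others named with values were chosen after their values were seen. The labels do not say whether the replicate numbers pair libraries, and the correlation of same-numbered deviations was -0.02.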

Additional observations from a re-analysis of the deposited data

Results flagged for a closer look

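Barcodes without a kept cell were outside every comparison, and respiratory chain UMIs were present in them above the 3 counts that a count of 0 allows. In the order Mat KO replicates 1 and 2, then WT, they numbered 83, 9, 37 and 33, over 52, 48, 48 and 48 such barcodes. This is 0.931%, 1.17%, 2.86% and 2.84% of the UMIs in those barcodes, which held 8911, 769, 1293 and 1164 UMIs in all.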

How the results depend on the processing

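Every complex sum was lower in Mat KO under each alternative. The values that moved by more than the spread between replicates were, for complex I, -0.34 (Rn45s left out), -0.46 (median over cells), -0.46 (cells with less cycle expression), -0.44 (equal depth) and -0.57 (stricter lineage limits). For complex II they were -0.90 (median over cells), -0.41 (lineage-low cells), -0.27 (less cycle expression), -0.70 (equal depth) and -0.53 (stricter lineage limits). For complex III the median over cells gave -0.51. For complex IV lineage-low cells gave -0.36 and stricter lineage limits -0.50, and for complex V less cycle expression gave -0.51 and stricter lineage limits -0.57. Leaving out 1 library gave -0.43 to -0.34 for I, -0.37 to -0.30 for II, -0.49 to -0.23 for III, -0.35 to -0.23 for IV and -0.47 to -0.27 for V. Members lower in Mat KO numbered 63 to 73 over all settings, where 47.9% to 55.1% of all genes were lower.

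All genes called between genotypes numbered 8 as reported, 149 with no filter on low counts, 109 with DESeq2, 109 with the replicate block, 3 at equal depth, 1 under stricter lineage limits and 17 to 123 without 1 library. Members called numbered 0 throughout, 1 with DESeq2 excepted. With the replicate block 0 members were called and 70 of 78 were lower. Since the labels state no pairing, the block was left out of the main fit. In the cycle contrast all genes called numbered 573 as reported, 1029 with DESeq2, 125 under stricter lineage limits and 336 to 490 without 1 library. Members called numbered 21 as reported, 8 at equal depth, 1 under stricter lineage limits and 8 to 13 without 1 library. No named member reversed a call. In the cycle contrast 51 values for named members fell below the threshold and 13 passed it, while 314 stayed on their side. Fewer cells remain under the lineage and depth limits, and the cause of the losses was not tested.

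The simulated genotype fit found few 2-fold changes at its fixed dispersion. That dispersion was not taken from these libraries, so how often a real 2-fold change in a member would be found is not known.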
